A study of Mus musculus with 4 samples.

Results

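The mitochondrial respiratory chain and the citrate cycle were represented by 46 nuclear genes, chosen by name: 16 of complex I, 4 of complex II, 5 of complex III, cytochrome c, 6 of complex IV, 6 of ATP synthase and 8 citrate cycle enzymes. All 46 were found on the array, by 64 probes, out of 21216 named genes, of which 16609 were well above background on at least 2 arrays. All 46 members were well above background on all 4 arrays. RNA of whole mouse kidney was hybridised to 1-colour arrays, 1 for each of 4 groups of C57BL/6 mice aged 8 weeks. The groups were wild type after a sham operation, Nlrc5-/- after a sham operation, wild type after ischemia and reperfusion, and Nlrc5-/- after ischemia and reperfusion, called injured here. Ischemia was bilateral for 30 min, and reperfusion lasted 48 h by the sample titles but 24 h by the sample descriptions. Nlrc5 encodes a regulator of MHC class I genes, and the labels do not give which part of it was deleted. Each group was 1 array, so the differences between groups have no replicate check, and no error between animals can be given. Levels are log2 processed signal minus the 75th percentile of each array, and every difference below is a difference of such levels.

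The respiratory chain carries electrons from NADH and succinate to oxygen through complexes I to IV and pumps protons, and ATP synthase uses the proton gradient to make ATP. The citrate cycle oxidises acetyl-CoA and supplies the electrons, and succinate dehydrogenase, complex II, belongs to both. Kidney tubules, the proximal tubule above all, are rich in mitochondria and depend on oxidative phosphorylation to drive sodium reabsorption.

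The arrays differed in ways that touch the comparisons. The 75th percentile of the signal was 181.7 in wild type injured and between 362.2 and 465.4 on the other 3 arrays, and no spot was saturated. Both wild type arrays shared 1 slide and 1 scan and both knockout arrays shared another, so genotype and slide cannot be told apart, whereas each injured array lay on the slide of its own sham array. The knockout sham array had a female pattern, with Xist at 5.20 and Ddx3y, Eif2s3y, Kdm5d and Uty not well above background, and the other 3 arrays had a male pattern. The wild type sham array carried fat cell transcripts, with Cidea at 2.73 against -4.13 to -3.71 elsewhere. The single Nlrc5 probe read -4.08 sham and -3.34 injured in wild type kidneys, and -3.77 sham and -3.62 injured in knockout kidneys. It did not separate the genotypes, and its place relative to the deleted part is not given in the sources used here, so genotypes are named as the arrays are labelled. Repeat spots of a probe put the spot-to-spot SD of a difference of 2 arrays at 0.15 (log2). An error that all spots of a probe share on an array is not in it. For the 12 members with more than 1 probe well above background on at least 2 arrays, the highest and lowest probe differed by a median of 0.41 in wild type. A limit of 0.30, which is 2 such SDs, is used below as a yardstick of spot noise only. The shares of all genes past 0.30 were not counted, so counts of members past it have no background beside them.

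In wild type kidneys the members were lower after injury almost throughout. Of 46 members, 43 were below 0, against 50.6% of all genes, and the median difference was -0.83 against -0.01 over 16379 genes. By at least 2-fold, 18 members were lower, 39.1% of them against 14.6% of all genes, and 0 were higher against 13.9%. The range ran from -2.53 for Sdhb to 0.24 for Ndufb3. By more than 0.30, 39 members were lower and 0 were higher. Atp5c1 at -1.01 lay just inside the 2-fold limit and Atp5o at -0.95 just outside. With the knockout sham array in place of the wild type sham array, which carried the fat transcripts, the median was -0.70 and 14 members were lower by 2-fold.

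In the kidneys labelled knockout the same direction was seen at a smaller size. The median was -0.28 against 0.02 over all genes, and 37 members were below 0 against 48.1% of all genes. Lower by at least 2-fold were 4 members, Ndufb5, Sdhb, Suclg1 and Cox5a, 8.7% of the list against 3.47% of all genes. None was higher by 2-fold, against 4.45%. By more than 0.30, 21 members were lower and 0 were higher. With the wild type sham array as the reference in place of the array of female pattern, the median was -0.35 and 11 members were lower by 2-fold. Ndufb5, Sdhb and Suclg1 were lower by 2-fold in both genotypes, which held for 1.88% of all genes, and 0 members were higher in both, against 2.54%. In 31 of 46 members both injured arrays lay below both sham arrays, against 23.9% of all genes. In 1, Ndufb3, both injured arrays lay above both sham arrays, against 26.8%, and in 14 the injured and sham arrays overlapped.

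**Figure D1:**
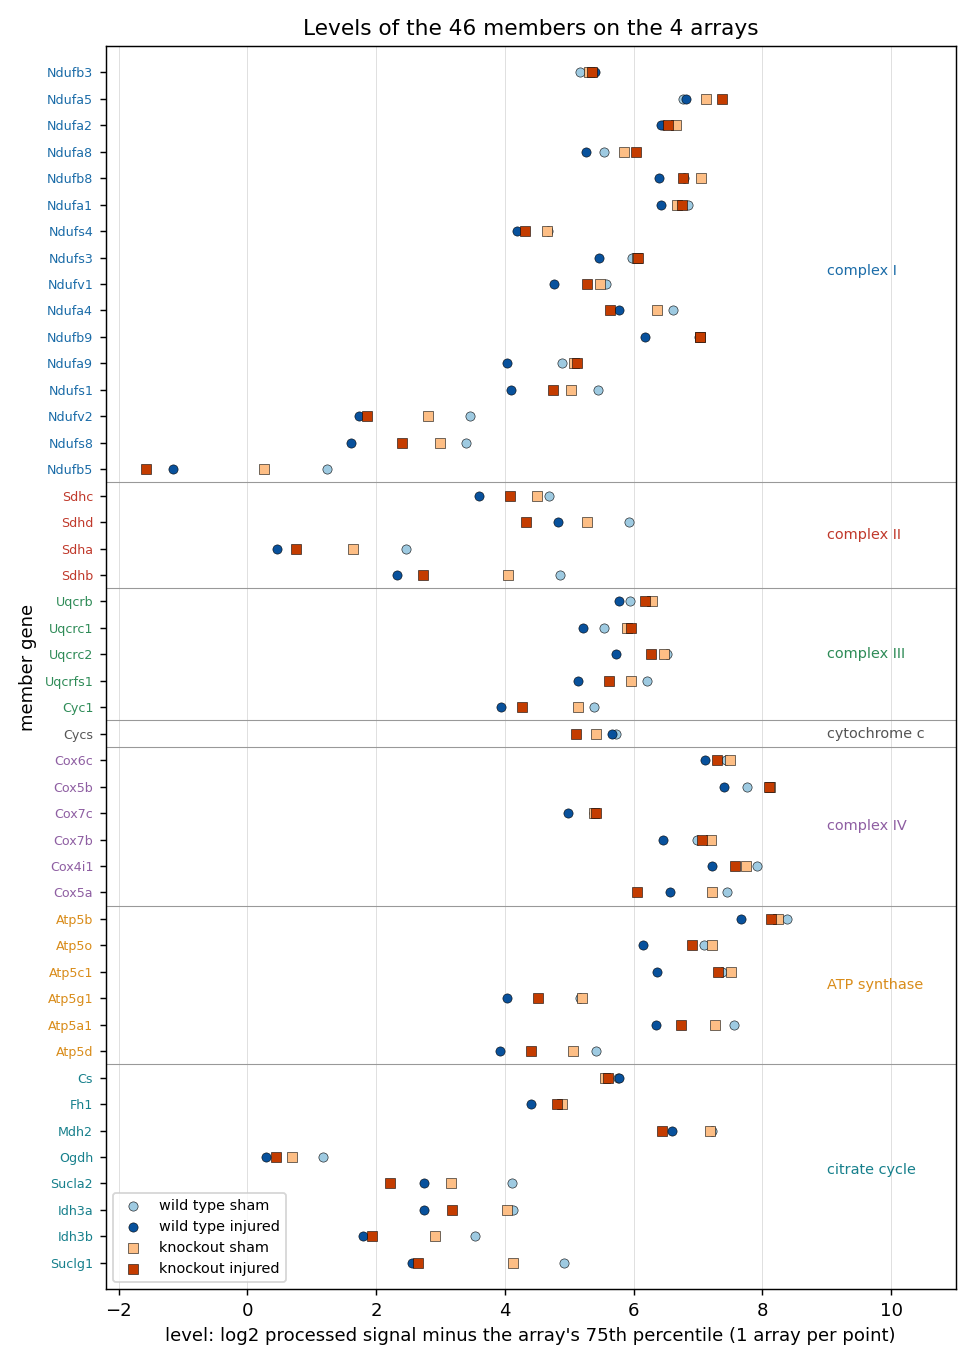
Level of each of the 46 members on each of the 4 arrays (x axis, log2 processed signal minus the array's 75th percentile; 1 point per array; y axis, genes by group). Within a row, the wild type injured point lies left of the wild type sham point for 43 of 46 genes, and levels are not comparable between rows because each row is another probe.

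The additive limma fit over all 4 arrays asked which genes followed injury in both genotypes, with 1 residual degree of freedom. With Benjamini-Hochberg adjustment, 0 of 46 members passed an adjusted p of 0.05, as did 0.0% of all genes, and the smallest adjusted p among members was 0.424, for Ndufb5. At an unadjusted p under 0.05, 14 members were lower against 6.09% of all genes, and 0 were higher against 5.14%. They were Ndufa4, Ndufb5, Ndufv2, Sdha, Sdhb, Sdhd, Cyc1, Cox5a, Atp5d, Atp5g1, Idh3a, Idh3b, Sucla2 and Suclg1. The fitted injury effect of Ndufb5 was -2.12 ± 0.30 (SE), that of Sdhb -1.93 ± 0.41 and that of Suclg1 -1.92 ± 0.35. With normexp background correction the fit called 21 members of 4438 genes called in all, or 14 of 1179 when normexp was fitted without flagged spots. The p-values reflect the spread among 4 arrays alone, and any difference in response between the genotypes enters the fit as error.

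Complex II, succinate dehydrogenase, was the group in which all 4 members were lower by 2-fold in wild type, against 14.6% of all genes. Its median was -1.55 in wild type and -0.92 in knockout. Sdhb, the iron-sulfur subunit, read 4.86 sham and 2.33 injured in wild type kidneys, and 4.05 sham and 2.73 injured in knockout kidneys. Both sham arrays thus lay above both injured arrays, and injured minus sham was -2.53 in wild type, a 5.78-fold difference, and -1.33 in knockout, 2.51-fold. Its probe (A_51_P234853) lies at chr4:140522514-140527081 (mm9, plus strand), a span longer than the probe. Sdha, the flavoprotein that oxidises succinate, read 2.47 sham and 0.46 injured in wild type, 1.64 sham and 0.75 injured in knockout. Injured minus sham was -2.01 and -0.88. Sdha had 2 further probes, and injured minus sham was -2.77 and -1.78 by 1 of them and -0.16 and -0.14 by the other, which the files tie to a separate cDNA. Sdhc and Sdhd encode the membrane anchor. Sdhc read 4.68 sham and 3.60 injured in wild type, 4.50 sham and 4.08 injured in knockout, and Sdhd read 5.93 sham and 4.83 injured in wild type, 5.28 sham and 4.32 injured in knockout. For all 4 genes both sham arrays lay above both injured arrays, and all 4 were lower on the knockout than on the wild type sham array, by -0.83 to -0.18.

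The 250 bases before the gene start are shown for the complex II genes present in the RefSeq promoter table (GRCm38.p6), and for Cycs, because they set genes with and without a match side by side. Capitals mark matches to GCGCANGCG, the core of the site of NRF1, a transcription factor known to bind promoters of respiratory chain genes.
Sdha, chr13:74350241-74350490, minus strand: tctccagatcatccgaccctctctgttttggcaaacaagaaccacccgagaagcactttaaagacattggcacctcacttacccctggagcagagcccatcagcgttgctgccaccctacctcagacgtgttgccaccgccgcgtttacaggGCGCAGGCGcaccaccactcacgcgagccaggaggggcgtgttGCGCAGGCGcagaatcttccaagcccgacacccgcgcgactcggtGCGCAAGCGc
Sdhb, chr4:140961021-140961270, plus strand: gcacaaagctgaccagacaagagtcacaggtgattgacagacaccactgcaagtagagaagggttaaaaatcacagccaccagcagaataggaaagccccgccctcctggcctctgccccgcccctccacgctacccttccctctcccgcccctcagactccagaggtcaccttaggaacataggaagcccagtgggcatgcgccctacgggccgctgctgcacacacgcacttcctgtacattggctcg
Sdhd, chr9:50603850-50604099, minus strand: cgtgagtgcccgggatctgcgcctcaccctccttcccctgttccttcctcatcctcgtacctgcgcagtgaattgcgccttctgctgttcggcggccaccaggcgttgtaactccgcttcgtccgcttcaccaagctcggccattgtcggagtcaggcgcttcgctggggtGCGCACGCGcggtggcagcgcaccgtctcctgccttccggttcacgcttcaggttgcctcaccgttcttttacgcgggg
Cycs, chr6:50566570-50566819, minus strand: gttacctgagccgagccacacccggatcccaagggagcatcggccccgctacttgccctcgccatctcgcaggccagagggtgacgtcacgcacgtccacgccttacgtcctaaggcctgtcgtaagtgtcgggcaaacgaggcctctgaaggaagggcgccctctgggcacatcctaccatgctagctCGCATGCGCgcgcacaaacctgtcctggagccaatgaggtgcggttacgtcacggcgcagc
Sdha held 3 matches in these bases, Sdhd and Cycs 1 each, and Sdhb 0.

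Of the 46 members, 35 had a promoter in that table. From 250 bases before to 50 after the start, on both strands, 10 of 35 members held GCGCANGCG, 28.6% against 7.03% of 27025 genes. They were Atp5c1, Atp5o, Cycs, Ndufa5, Ndufa8, Ogdh, Sdha, Sdhd, Sucla2 and Uqcrc1. The median response of the 10 was -0.92 in wild type and -0.28 in knockout, and that of the other 25 was -0.80 and -0.34. The GABPA motif CCGGAAGT was in 1 member (Ndufs3; 2.86% against 4.31%). The estrogen-related receptor motif AAGGTCA was in 2 (Ogdh and Sdhd; 5.71% against 5.38%), and the YY1 motif AAGATGGC in 3 (Ndufa9, Ndufb8 and Ndufs4; 8.57% against 3.19%). None of these 4 motifs contains another. The 27025 genes set beside the members were all genes with a promoter of that length, not only those well above background here. A match is a description of the letters and not a measurement of binding.

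Complex I, NADH dehydrogenase, was uneven. Of 16 genes, 14 were below 0 in wild type, against 50.6% of all genes, with a median of -0.66. Lower by 2-fold were 4, 25.0% against 14.6% of all genes, and the knockout median was -0.17. Ndufb5, an accessory subunit of the membrane arm, read 1.24 sham and -1.16 injured in wild type kidneys, and 0.25 sham and -1.58 injured in knockout kidneys. The injured arrays lay below both sham arrays, at -2.40 (5.29-fold) in wild type and -1.83 (3.55-fold) in knockout. Its probe (A_51_P201904) lies at chr3:32650236-32650295 (mm9, plus strand).

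Ndufs8, which carries iron-sulfur clusters in the peripheral arm, read 3.39 sham and 1.61 injured in wild type, 2.99 sham and 2.40 injured in knockout, and stood at -1.79 and -0.59. Ndufs1, the largest iron-sulfur subunit, stood at -1.36 and -0.28, and Ndufv2, a subunit of the NADH-oxidising module, at -1.72 and -0.95. These 4 genes were the ones past 2-fold in wild type. Ndufa2 hardly differed, at 6.46 sham and 6.43 injured in wild type, 6.66 sham and 6.53 injured in knockout. Ndufa5 stood at 0.06 and 0.26 and Ndufb3 at 0.24 and 0.06, so responses near 0 were found beside those of Ndufb5 and Ndufs8. Ndufa4, named for complex I but assigned by later work to complex IV, stood at -0.83 and -0.73. Without it the complex I medians were -0.52 and -0.13. Ndufa9, an accessory subunit, read 4.88 sham and 4.03 injured in wild type, 5.07 sham and 5.12 injured in knockout, and the wild type injured array stood alone below the other 3.

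Complex III passes electrons from ubiquinol to cytochrome c. All 5 of its genes were below 0 in wild type (median -0.80) and 4 in knockout (median -0.20), against 50.6% and 48.1% of all genes. Cyc1, cytochrome c1, read 5.39 sham and 3.94 injured in wild type kidneys, and 5.14 sham and 4.26 injured in knockout kidneys, and stood at -1.45 and -0.88. Uqcrfs1, the Rieske iron-sulfur protein, read 6.20 sham and 5.14 injured in wild type, 5.96 sham and 5.61 injured in knockout. In both genes the sham arrays lay above the injured arrays. Uqcrb, a small subunit, stood at -0.16 and -0.11, within 0.30 of 0. The core protein Uqcrc1 read 5.54 sham and 5.21 injured in wild type, 5.90 sham and 5.96 injured in knockout, lowest in wild type injured, and its other probe stood at -0.71 in wild type and -0.33 in knockout where the first stood at -0.33 and 0.06.

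Cycs, the soluble electron carrier cytochrome c, read 5.73 sham and 5.67 injured in wild type, 5.41 sham and 5.11 injured in knockout, differences of -0.06 and -0.30. The other 2 Cycs probes stood at -0.80 and -0.97 in wild type and at -0.16 and 0.05 in knockout, so the value near 0 in wild type was that of the brightest probe alone.

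Complex IV, cytochrome c oxidase, had 6 of 6 genes below 0 in wild type, against 50.6% of all genes. By 2-fold 0 of 6 were lower, against 14.6%, and the medians were -0.47 and -0.15. Cox5a read 7.45 sham and 6.56 injured in wild type kidneys, and 7.22 sham and 6.05 injured in knockout kidneys. It was the member whose difference was larger in knockout (-1.17) than in wild type (-0.90) by the widest margin. Cox4i1, the ubiquitous form of subunit 4, read 7.92 sham and 7.22 injured in wild type, 7.75 sham and 7.58 injured in knockout. Cox5b read 7.76 sham and 7.40 injured in wild type, 8.12 sham and 8.10 injured in knockout, with both knockout arrays above both wild type arrays, and Cox6c stood at -0.34 and -0.20.

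ATP synthase had all 6 genes below 0 in both genotypes, with medians of -1.07 and -0.43. In wild type 4 were lower by 2-fold, 66.7% against 14.6% of all genes. Atp5d, the delta subunit of the rotor, read 5.42 sham and 3.93 injured in wild type kidneys, and 5.05 sham and 4.41 injured in knockout kidneys, and stood at -1.49 and -0.65. Atp5a1, the alpha subunit, read 7.56 sham and 6.35 injured in wild type, 7.26 sham and 6.73 injured in knockout, and its second probe stood at -1.65 and -1.13 where the first stood at -1.20 and -0.54. Atp5g1, of the membrane ring, stood at -1.14 and -0.69. Atp5c1, the central shaft, read 7.38 sham and 6.37 injured in wild type, 7.52 sham and 7.31 injured in knockout, with the wild type injured array alone below the rest. Atp5b, the catalytic beta subunit, had 4 probes that disagreed. Its brightest stood at -0.71 in wild type and -0.11 in knockout, and the others at -2.45 and -1.48, at -1.21 and -0.22, and at 0.55 and -0.23. The last of these is tied by the files to another transcript of the gene. Of the 12 members with more than 1 probe well above background on at least 2 arrays, Atp5b was the one whose such probes differed in sign in wild type. In knockout those of Cycs, Ndufa1 and Uqcrc1 did so, by values between -0.33 and 0.07.

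Of the 8 citrate cycle enzymes, 7 were below 0 in each genotype and 4 were lower by 2-fold in wild type, with medians of -1.13 and -0.80. Suclg1, the alpha subunit of succinyl-CoA synthetase, read 4.92 sham and 2.56 injured in wild type kidneys, and 4.12 sham and 2.65 injured in knockout kidneys. It stood at -2.36 (5.15-fold) and -1.47 (2.76-fold), and its probe (A_51_P491227) lies at chr6:73221044-73221103 (mm9, plus strand). Its ADP-forming partner Sucla2 read 4.11 sham and 2.75 injured in wild type, 3.16 sham and 2.21 injured in knockout, and stood at -1.36 and -0.95. Idh3a and Idh3b, subunits of the NAD-linked isocitrate dehydrogenase, stood at -1.38 and -0.86 and at -1.74 and -0.98. For all of these the injured arrays lay below both sham arrays.

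Citrate synthase, Cs, the enzyme of the entry step and a common measure of mitochondrial content, read 5.75 sham and 5.78 injured in wild type, 5.55 sham and 5.60 injured in knockout. It stood at 0.02 and 0.05, and its second probe at 0.26 and 0.21. Ogdh, of the oxoglutarate dehydrogenase complex, stood at -0.89 and -0.25, the fumarase Fh1 at -0.43 and -0.08, and the malate dehydrogenase Mdh2 at -0.61 and -0.74.

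**Figure D2:**
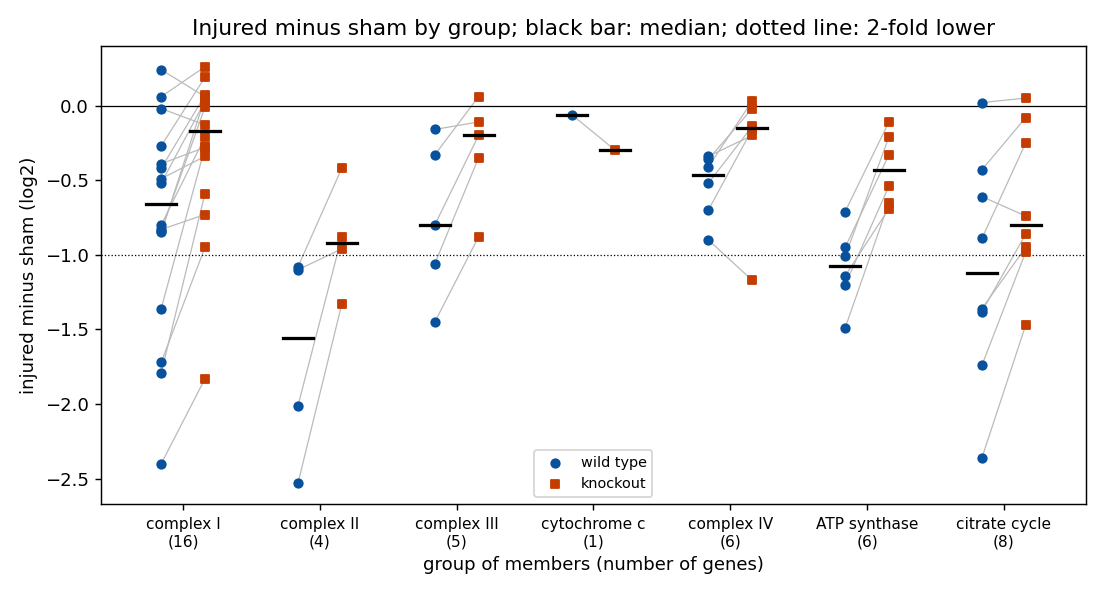
Injured minus sham (y axis, log2) for each member in wild type (circles) and knockout (squares), by group (x axis); a grey line joins the values of 1 gene, the black bar is the group's median, and each value is a difference of 2 arrays. The complex II medians are -1.55 and -0.92, those of complex IV -0.47 and -0.15.

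The difference between the responses was in 1 direction for most members. In 41 of 46 the knockout response was the less negative or more positive one, and in the other 5 it was not, while 51.1% of all genes were below 0 on that scale. The wild type response is subtracted here, and responses over all genes spread less in knockout. A list already low in wild type thus tends above 0 on that scale, so all genes are no matched background for it. The median of the knockout minus the wild type response was 0.53 against -0.02. By 2-fold, 4 members differed, Sdhb (1.21), Ndufs8 (1.20), Sdha (1.12) and Ndufs1 (1.08), against 9.79% of all genes, and 0 differed in the other direction, against 9.35%. Over the 46 members, wild type and knockout responses, which share no array, had a Pearson r of 0.84 and a Spearman rho of 0.81, and over 16609 genes 0.41 and 0.48. The genes are not independent replicates, so these are descriptions. The SD of the response over members was 0.71 times as large in knockout as in wild type, at 0.48 and 0.67. Over all genes it was also smaller in knockout, at 0.68 against 1.19 in wild type. A narrower spread in knockout was thus not particular to the members.

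**Figure D3:**
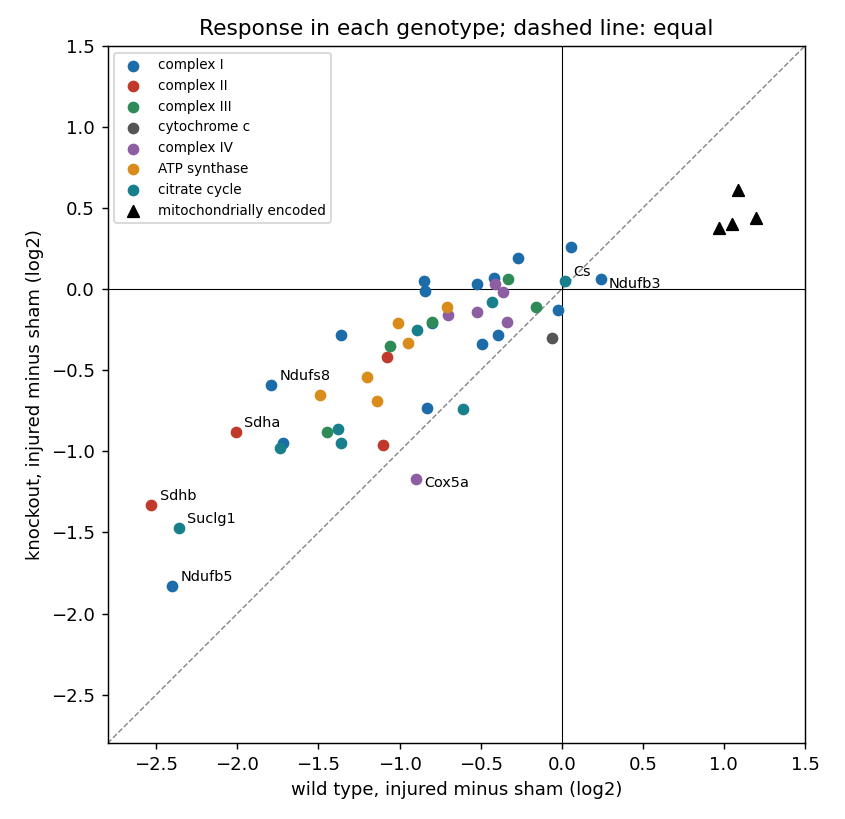
Injured minus sham in knockout (y axis, log2) against wild type (x axis, log2) for the 46 members, coloured by group, and for 4 mitochondrially encoded genes (triangles); 1 point per gene. Of the members, 41 lie above the dashed line of equal response, Cox5a lies below it, and the triangles lie at positive values on both axes.

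Injured kidneys labelled knockout were compared with injured wild type kidneys to ask whether Nlrc5 status went with the members after injury. The median was 0.40 against 0.04 over all genes. Above 0 were 37 members and below 0 were 9, against 47.0% of all genes below 0. Higher by 2-fold was 1 member, Ndufa9 at 1.09, against 10.8% of all genes, and lower were 0 against 7.33%. By more than 0.30, 29 members were higher and 5 were lower. Cycs at -0.56, Sucla2 at -0.54, Sdhd at -0.52 and Cox5a at -0.51 were lowest in this comparison by the brightest probe. The other 2 probes of Cycs stood at 0.62 and 0.73, and another probe of Sucla2 at 0.76, so the direction for these genes differed between probes. With normexp fitted on all spots the median was 0.02.

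In sham kidneys the median was -0.11 against 0.04, 29 members were below 0 against 46.4% of all genes, and 0 differed by 2-fold, against 3.1% lower and 4.66% higher. None was 2-fold apart in the same direction in both operations, against 0.572% of all genes lower and 1.19% higher. Complex II (median -0.73) and the citrate cycle (median -0.35) were lower on the knockout sham array, and the medians of complex IV (0.02) and complex I (0.00) were near 0. In limma's fit of genotype over both operations, 0 of 46 members passed an adjusted p of 0.05, as did 0.0% of all genes, and 0 had an unadjusted p under 0.05, against 2.11% of all genes lower and 3.35% higher. The smallest adjusted p among members was 0.767.

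Markers of tubule segments rich in mitochondria and of other cells differed between the arrays as well. Of 8 proximal tubule markers, 7 were lower by 2-fold in wild type (median -1.26) and 0 in knockout (median 0.15), where the lowest was Cubn at -0.52. Slc22a6 went the other way, at 0.19 in wild type and 1.02 in knockout, the 1 marker higher by 2-fold there. The summed level of the 8 markers was 9.40 sham and 8.02 injured in wild type, and 9.08 sham and 9.26 injured in knockout. The summed level of the members was 11.83 sham and 11.19 injured in wild type, and 11.81 sham and 11.59 injured in knockout. Of 5 thick ascending limb markers, 3 were lower by 2-fold in each genotype (medians -1.05 and -1.01). Of all genes, 14.6% were lower by 2-fold in wild type and 3.47% in knockout. The knockout response was less negative for 4 of the 5, by 2-fold for Egf (-6.25 in wild type, -1.62 in knockout) and Slc12a1 (-3.06 and -1.49). Their summed level was 8.64 sham and 7.63 injured in wild type, and 8.62 sham and 8.14 injured in knockout. All 5 markers of injured tubule cells were above 0 in both genotypes, with medians of 5.61 and 2.46, and their summed level was 1.45 sham and 7.09 injured in wild type, and 0.78 sham and 3.18 injured in knockout. The response was smaller in knockout for 3 of them and larger for 2, among them Havcr1 at 3.07 in wild type and 5.54 in knockout. The sham arrays were unlike, with Havcr1 at 0.35 in wild type and -4.95 in knockout, and Krt20 at -1.03 and -3.63. The other 3 were higher on the knockout sham array. All 4 erythroid markers were below 0 in both genotypes, with medians of -2.10 and -5.97, and their median was 3.08 higher on the knockout than on the wild type sham array. Of 6 leukocyte markers, 3 were above 0 in each genotype (medians 0.58 and 0.05), and skeletal muscle markers were at most 2 of 4 well above background on any array. In whole tissue, fewer cells of a type and less RNA per cell cannot be told apart. The part of these markers in the members' values was not tested.

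The remaining nuclear subunits of the chain, 38 genes outside the members, were lower too: 37 were below 0 in wild type (median -0.68), against 50.6% of all genes. In wild type 9 were lower by 2-fold, 23.7% against 14.6% of all genes, and 0 were higher, against 13.9%. The knockout median was -0.26. Ndufb2, an accessory subunit of complex I, stood at -1.54 and -0.72, while Uqcrq stood at 0.11 and 0.20. In limma's fit, 0 passed the adjusted threshold. At an unadjusted p under 0.05, 6 of the 38 were lower, against 6.09% of all genes, and 0 were higher, against 5.14%. Of 13 further enzymes of the citrate cycle and of pyruvate entry, 9 were lower by 2-fold in wild type (median -1.34) and 1 in knockout (median -0.51). That was 69.2% against 14.6% of all genes in wild type, and 7.69% against 3.47% in knockout. Idh2, the NADP-linked isocitrate dehydrogenase, read 3.32 sham and 0.86 injured in wild type, 2.52 sham and 1.64 injured in knockout. Suclg2, the GDP-forming partner of Suclg1, stood at -2.09 and -0.63. Pdha1, of the pyruvate dehydrogenase complex, stood at 0.29 and 0.14. Pdk4, a kinase that switches that complex off, read 1.12 sham and 3.24 injured in wild type, 1.38 sham and 1.77 injured in knockout, highest in wild type injured, while Pdk2 stood at -1.10 and -0.26.

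The mitochondrial genome encodes further subunits of complexes I, III and IV and of ATP synthase, and these stood the other way from the nuclear members. Of 13 such genes listed, 4 were measured here, and all 4 were higher after injury (median 1.07 in wild type, 0.42 in knockout). mt-Nd4 of complex I read 7.60 sham and 8.66 injured in wild type kidneys, and 7.64 sham and 8.04 injured in knockout kidneys. mt-Cytb of complex III read 8.54 sham and 9.51 injured in wild type, 8.53 sham and 8.90 injured in knockout. The sham arrays were alike, and the wild type injured array was highest. mt-Co2 of complex IV stood at 1.20 and 0.44 and mt-Atp6 of ATP synthase at 1.09 and 0.61. In limma's fit mt-Atp6 had an injury effect of 0.85 ± 0.29 (SE) and an adjusted p of 0.432. The rise in wild type was not seen in the authors' value table, where wild type values were -0.02 for mt-Nd4, -0.32 for mt-Cytb, -0.11 for mt-Co2 and -0.12 for mt-Atp6. Of these, mt-Cytb alone lay more than 0.30 from 0. Knockout values there were 0.18, 0.05, -0.03 and 0.19 in the same order. With quantile normalization the wild type values were 0.69, 0.14, 0.12 and 0.60, and with normexp fitted on all spots the knockout values were -0.30 to -0.06. The files place the mt-Co2 and mt-Atp6 probes on chromosome 1, at positions 24621739 and 24621393 (mm9), and those of mt-Nd4 and mt-Cytb on the mitochondrial genome, so a nuclear copy and the mitochondrial gene cannot be told apart for the former pair.

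**Figure D4:**
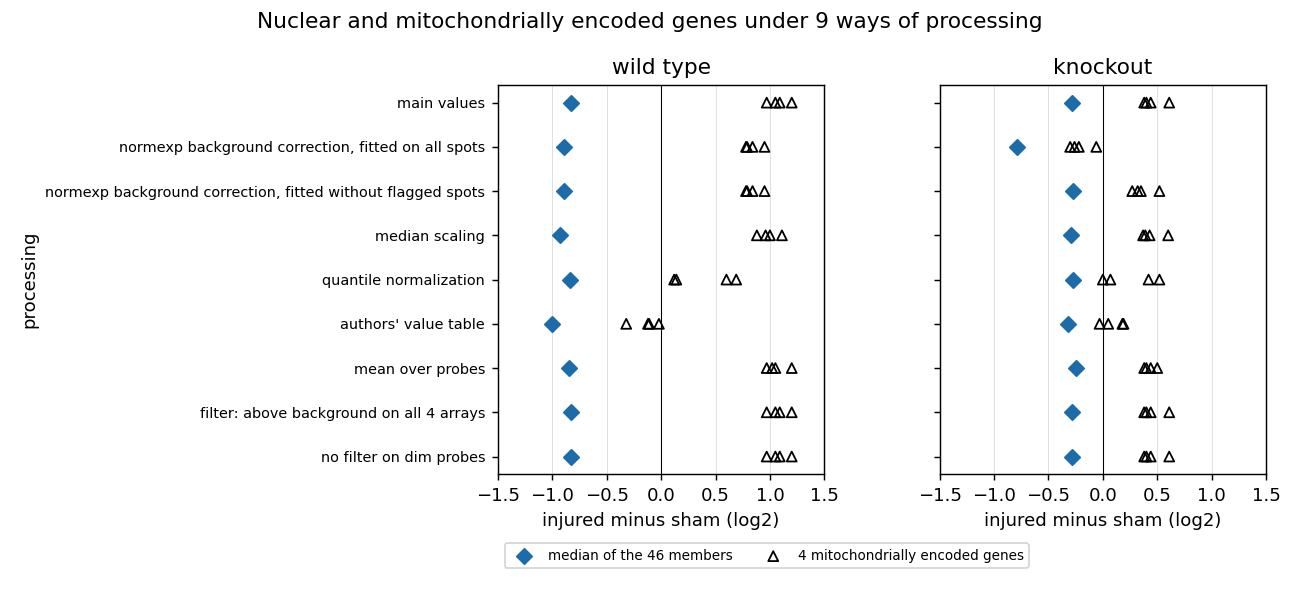
Injured minus sham (x axis, log2) under 9 ways of processing (y axis), in wild type (left) and knockout (right): the median of the 46 members (diamonds) and the values of 4 mitochondrially encoded genes (triangles). The members' wild type median lies between -1.0 and -0.83 throughout, while the triangles are near or below 0 in the authors' table.

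Factors that regulate mitochondrial genes did not share 1 direction. Of 15 regulators, 2 were lower by 2-fold in wild type, 13.3% against 14.6% of all genes, and 3 were higher, against 13.9%. These counts were thus near those of all genes. The median was -0.17 in wild type and 0.08 in knockout. The coactivator Ppargc1a read 3.75 sham and 2.85 injured in wild type, 4.41 sham and 4.0 injured in knockout, and stood at -0.90 and -0.41, while Ppargc1b stood at -0.31 and -0.22. The estrogen-related receptors Esrra, Esrrb and Esrrg, partners of Ppargc1a on promoters of respiratory genes, stood at -0.75, -1.69 and -1.58 in wild type and at 0.20, -1.37 and -1.0 in knockout. Nrf1 read -2.65 sham and -1.35 injured in wild type, -1.64 sham and -1.17 injured in knockout, lowest in wild type sham. Gabpa stood at -0.77 and -0.51, and Gabpb1, its partner subunit, at 2.69 and 0.09. Tfam, which packages and helps to transcribe mitochondrial DNA, read 6.44 sham and 7.19 injured in wild type, 6.54 sham and 7.02 injured in knockout, and Pprc1, a relative of Ppargc1a, stood at 1.5 and 0.41. In limma's injury fit 0 of the 15 passed the adjusted threshold. At an unadjusted p under 0.05, 2 were lower, Esrrb and Esrrg, against 6.09% of all genes, and 0 were higher, against 5.14%.

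Assembly factors, which build the complexes but stay out of them, had a median of -0.24 in wild type (knockout -0.06) over 17 genes. Ndufaf3 and Ndufaf1, for complex I, stood at -1.30 and -0.66 and at -1.08 and -0.28. Cox17, the copper chaperone of complex IV, read 5.82 sham and 7.02 injured in wild type, 6.23 sham and 6.45 injured in knockout, and stood at 1.20 in wild type. Over 14 carrier and import genes the medians were -0.46 and -0.20. The ADP/ATP carrier Slc25a5 stood at -1.92 and -1.27 and the phosphate carrier Slc25a3 at -1.38 and -0.92, while the import genes Timm44 and Tomm22 stood at 0.35 and 0.32 in wild type.

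**Figure D5:**
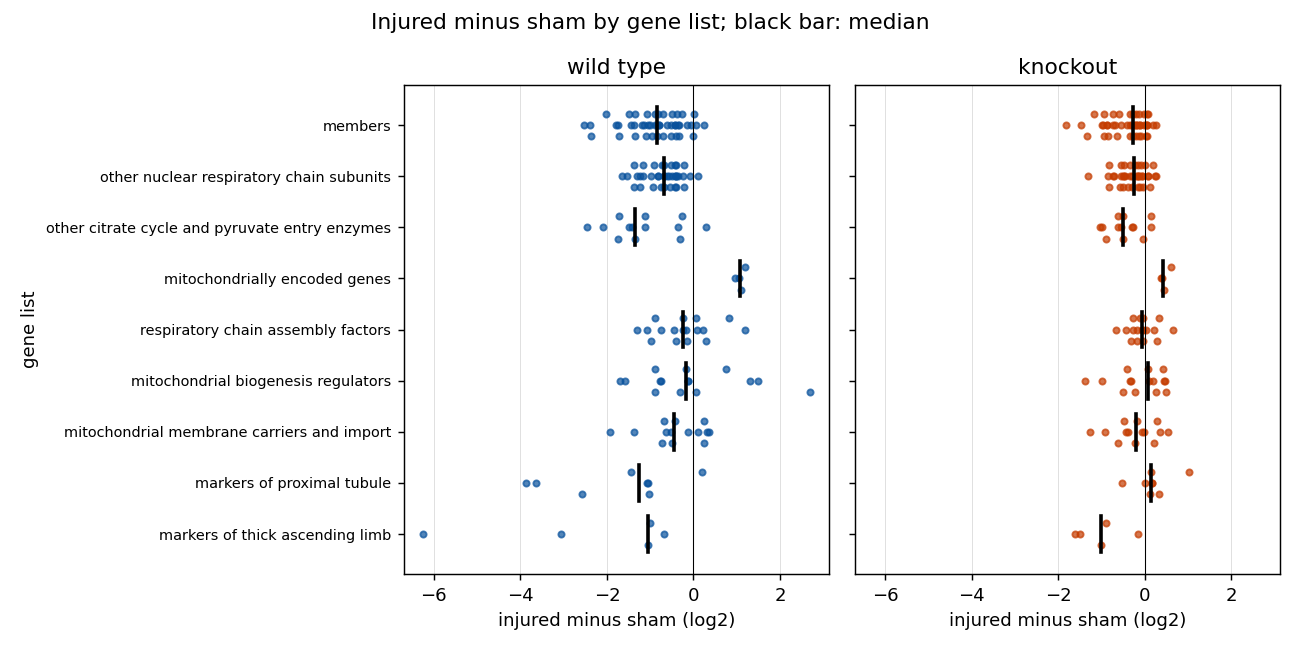
Injured minus sham (x axis, log2) of each gene in 9 lists (y axis), in wild type (left) and knockout (right); 1 point per gene, black bar the median of the list. In wild type the members (median -0.83), the other nuclear subunits (-0.68) and the other citrate cycle and pyruvate enzymes (-1.34) lie left of 0 and the mitochondrially encoded genes (1.07) right of it.

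Subunit isoforms known from muscle and brown fat had the widest values. Of 6 tissue-restricted isoforms counted in wild type, 3 were below 0 and 3 above. Above 0 were Cyct, Cox6b2 and Cox4i2. Cyct was not well above background on either sham array, so its rise was at least 0.91 in wild type and 0.89 in knockout. Cox6b2 stood at 0.53 and 0.68. Cox4i2 did not clear background on the wild type injured array, so its 0.32 in wild type was an upper bound, and it stood at -0.92 in knockout. Cox8b read 2.43 on the wild type sham array and did not clear background after injury, so the difference was at least as large as the bound of -7.17. In knockout it read -1.34 sham and -4.63 injured. Cox7a1 read 4.02 sham and 1.15 injured in wild type, 4.09 sham and 3.36 injured in knockout. Cox6a2 read -0.26 sham and -2.40 injured in wild type, -0.17 sham and -0.44 injured in knockout. Both were lowest in wild type injured. Beside them, the fat cell marker Cidea read 2.73 sham and -3.81 injured in wild type, -3.71 sham and -4.13 injured in knockout. On the sham arrays Cfd, another fat cell marker, stood at 4.13 for wild type and -2.98 for knockout. Of 6 fat markers measured, 6 sham and 3 injured were well above background in wild type, and 3 sham and 2 injured in knockout. Their summed level was 5.59 sham and 2.21 injured in wild type, and 3.72 sham and 3.16 injured in knockout. Their part in the isoform values was not tested.

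Among the members, the dimmer probes showed the larger differences. The mean level of the probe over the 4 arrays and the wild type response had a Pearson r of 0.66 and a Spearman rho of 0.59 over the 46 members, against -0.07 and -0.06 over all genes. In knockout the values were 0.59 and 0.51 over members. The same 4 arrays give the mean level and the response, and these are descriptions. All of these members were well above background on each array.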

How the data were processed

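Kidney RNA of 4 groups was measured on 1 one-colour Agilent array each, and groups were taken from the labels. The authors' deposited scanner files hold spot intensity values from Agilent Feature Extraction (10.7.3.1 per the file headers, 9.1 per the submitters' processing notes), background-subtracted and detrended within the array and not scaled between arrays. The authors' deposited value table holds log2 values of the same arrays, with column medians of 5.91 to 5.93 and the same order as the scanner intensity; its normalization is not given in the sources used here, and it served as an alternative. Probe coordinates are mm9, per the file headers.

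Control spots and spots with outlier flags were left out, spots of a probe were averaged, and levels are log2 processed intensity scaled by subtracting each array's 75th percentile. The brightest probe by mean stood for a gene, and genes well above background on at least 2 arrays were tested (16609). Probes were named through RefSeq tables (GRCm38.p6). A probe not well above background had only a bound, from the lowest signal well above background on that array. Additive fits used limma 3.58.1 in R 4.3.3 with Benjamini-Hochberg adjustment; differences of 2 arrays have no p-value and were counted at 2-fold. The procedures were tested on simulated data. Precision is limited by 1 array per group.

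The members, lists and motifs were chosen with earlier results of these data known. By the naming rule, each group of members gives its 2 largest and its smallest wild type responses and its largest difference between injured kidneys; further members 2-fold apart in both genotypes or with probes of opposite sign; each other list its 2 largest each way; and always Ppargc1a, Ppargc1b, Esrra, Tfam, Nrf1, Gabpa and Nlrc5. A gene that the rule names is not reported here. Other genes named were chosen after their values were seen. Alternatives covered background correction, scaling, the probe rule, filters, the fold limit, the reference array and each array left out.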

Additional observations from a re-analysis of the deposited data

Results flagged for a closer look

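Knockout minus wild type lay on opposite sides of 0 in sham and in injured kidneys, by at least 0.30 on each side, for 4 members. These differences have 1 array per group and were not tested. The share of all genes that met the same rule was not counted. In sham and then in injured kidneys, the difference was -0.42 and 0.66 for Ndufs1, -0.40 and 0.80 for Ndufs8, -0.81 and 0.40 for Sdhb, and -0.37 and 0.48 for Atp5d. All 4 were lower on the knockout sham array and higher on the knockout injured array than on the matching wild type array.

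Among the genes outside the members that the naming rule gave, the same held for 5. The values in sham and in injured kidneys were -0.80 and 0.78 for Idh2 and -3.78 and 0.77 for Cox8b, which did not clear background on the wild type injured array. In the opposite order of signs they were 0.41 and -0.57 for Cox17, 0.36 and -0.73 for Pprc1, and 0.37 and -2.23 for Gabpb1. It held for further genes of the lists as well, among them Mpc1 at -0.83 and 0.40 and Pcx at -0.55 and 0.72. The knockout sham array had the female pattern and lacked the fat transcripts of the wild type sham array, and the part of either in these values was not tested.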

How the results depend on the processing

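No paired analysis was possible beyond the additive fit, in which genotype and slide are 1 term, because each group held 1 array. Below 0 in wild type were 42 of 46 members under all 9 ways of processing, and 36 in knockout, and 14 were lower by 2-fold in wild type under all of them. The wild type median was -1.0 in the authors' value table. At a 1.5-fold limit 29 members were lower in wild type, and at 4-fold 4. In knockout they were 16 and 0. In injured kidneys 11 and 0 members were higher in knockout at those limits, and in the response difference 19 and 0. In sham kidneys 8 were lower at 1.5-fold. The shares of all genes at 1.5-fold and 4-fold were not counted, so these counts show only how the members depend on the limit.

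Normexp background correction fitted on all spots gave a knockout median of -0.79 with 16 members lower, 0.02 between injured kidneys with 1 lower and 0 higher, a response difference of 0.10 with 1 higher, 21 members called by limma for injury, and 0.06 for Cox8b in knockout. On the knockout injured array that fit set the mean background at -225.2, against -5.4 to -1.3 on the others, and 1 spot lay at -11069. With flagged spots kept out of the fit (chosen after seeing the data) the mean was 0, 3 members were higher between injured kidneys, 8 in the response difference, and 14 were called for injury. Median scaling gave -0.26 in sham kidneys with 2 members lower. Quantile normalization and the authors' table each gave 2 members higher between injured kidneys. Wild type sham as reference gave 11 lower in knockout; the knockout sham array as reference, also chosen after seeing the data, left the wild type count within 1.5 times. In the authors' table mt-Atp6 was at -0.12 and mt-Co2 at -0.11 in wild type. For these values the cause was not tested.

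Leaving out each array in turn, limma called 0 to 0 members for injury and 0 to 0 for genotype. Over all genes it called 784 for injury without the knockout injured array and 144 for genotype without the wild type sham array, with the tested term alone in the fit. Of the members' counts and medians, 146 values lay close to the main one and 26 did not. Of the values of named genes 1456 did, 421 moved further and 3 were counted as reversed. The 3 do not hold every change of sign. With normexp fitted on all spots mt-Co2 in knockout went from 0.44 to -0.22. In the authors' table its difference between injured kidneys went from -0.76 to 0.03. Dim probes limit the isoform values, while all members were well above background.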

Other observations

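Pyruvate entry and 1 further subunit of isocitrate dehydrogenase had values as large as those of the members. The genes in this paragraph were chosen after their values were seen. Mpc1, a subunit of the mitochondrial pyruvate carrier, read 5.91 sham and 4.16 injured in wild type kidneys, and 5.07 sham and 4.57 injured in knockout kidneys. Pdhb, the beta subunit of pyruvate dehydrogenase, read 4.55 sham and 2.81 injured in wild type, 3.88 sham and 2.90 injured in knockout. Idh3g, the gamma subunit of the NAD-linked isocitrate dehydrogenase, read 6.52 sham and 5.05 injured in wild type, 6.36 sham and 6.33 injured in knockout, so that the wild type injured array alone was low and the injured kidneys differed by 1.28. Pcx, pyruvate carboxylase, read 6.11 sham and 4.98 injured in wild type, 5.56 sham and 5.71 injured in knockout. Pdp1, a phosphatase that switches pyruvate dehydrogenase on, stood at -0.34 in wild type and -1.09 in knockout. The outer membrane import receptor Tomm20 was lower in knockout on both operations, at -1.16 in sham and -1.26 in injured kidneys.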
